A study of Mus musculus with 4 samples.

Results

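The 10 genes described here encode the main parts of the transforming growth factor-β (TGF-β) signalling pathway: the ligand genes Tgfb1 and Tgfb3, the receptor genes Tgfbr1 and Tgfbr2, the signal transducer genes Smad2, Smad3 and Smad4, and the inhibitor genes Smad7, Ski and Skil. They were chosen as a pathway, and selected in part on the measured log2 signal of Tgfb3, which was lower on both SH-2251 arrays than on the matching control arrays. The values of Tgfb3 are therefore a description only. The genes make up 10 of the 18539 genes named on the array and are measured by 16 of its 41174 probes. All 16 probes were well above background on all 4 arrays.

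SH-2251 is a small compound that was examined for its effect on IL-5 production by Th2 cells, the CD4 T cell subset that makes IL-4, IL-5 and IL-13. CD4 T cells from the spleens of female C57BL/6J mice (young adults by the study's methods) were activated over 2 days by plate-bound antibody to TCR-β (3 µg/ml) and antibody to CD28 (1 µg/ml) in medium with 10 ng/ml of IL-4 and 2.5 ng/ml of IL-2, and kept for 3 more days in both cytokines. Control Th2 cells received no SH-2251, and SH-2251-treated Th2 cells received it in both phases, at 1 µM and then at 1 mM according to the labels. Each culture was either left resting or restimulated for 4 h through the T cell receptor with plate-bound antibody to TCR-β, so the 4 conditions are resting control, resting SH-2251, restimulated control and restimulated SH-2251. The methods name a lower dose, naive CD4 T cells as the starting cells and an antibody against IFN-γ in the culture, which the labels do not, so the dose behind the arrays is not settled. No condition was cultured without IL-4, with added TGF-β or with a second compound.

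Each condition was measured on 1 single-dye array, and no source used here says how many mice or cultures lie behind it. No test between conditions was made, no p-value is given, and a difference between treatments cannot be told apart from a difference between cultures. Signals are processed intensities on the log2 scale, minus the 75th percentile of all probes on the same array, so that 0 is that percentile. Unless named otherwise, 4 signals in a row are in the order resting control, resting SH-2251, restimulated control and restimulated SH-2251. A technical SD, from the error estimate of the scanner software, follows some differences and covers error within the arrays only. A probe's signal also depends on its sequence, so signals of different genes are not compared with each other.

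The identity of the cells was checked with marker genes. All 6 measured CD4 T cell markers and all 6 Th2 markers were well above background on every array. The CD4 T cell markers had a summed linear signal, in multiples of the array's 75th percentile, of 311, 296, 383 and 404 on the arrays in the order given above. The Th2 markers summed to 71.9, 61.8, 449 and 332, and their median difference with SH-2251 was -0.94 at rest and -0.40 after restimulation. Il13, Il5 and Il1rl1 were at least 2-fold lower at rest and Il5 and Il1rl1 after restimulation, whereas Gata3 differed by -0.17 and -0.033 and Il4 by -0.10 and -0.23. These values are from the brightest probe. Over the Il1rl1 probes compared, differences ran from -4.61 to -0.75 at rest and from -3.94 to -3.78 after restimulation. Of the B cell markers 7 of 8 were also above background, Pax5 excepted, and they summed to 40.9, 35.6, 33.0 and 45.8 on the arrays in the order given above. Their median difference with SH-2251 was 0.16 at rest and 0.62 after restimulation. After restimulation 2 of 7, Ms4a1 (1.21) and Cd74 (1.19), were at least 2-fold higher, against 2.65% of all genes. For myeloid markers 3 of 6 were above background, with a sum of 2.67 to 2.86 on the control arrays and 2.44 to 3.00 on the SH-2251 arrays, and Lyz2, Itgam and Itgax were not above background. The platelet markers Pf4, Ppbp and Gp9 were at background throughout, and Itga2b was above it only on the resting SH-2251 and restimulated control arrays. The sum over the platelet list was 0.0516 to 0.0835 in control and 0.0734 to 0.0766 in SH-2251-treated cells. Of the CD8 T and NK cell markers only Cd8a (1 of 4) was above background, and the list summed to 0.121 to 0.171 on the control arrays and 0.267 to 0.305 on the SH-2251 arrays. The red cell markers, of which 1 or 2 of 3 were above background, summed to 0.232 to 0.365 in control and 0.639 to 0.712 in SH-2251-treated cells. The regulatory T cell markers summed to 17.4 and 78.1 in the control and 5.52 and 39.7 in the SH-2251-treated cells, resting and restimulated, with all 3 measured markers above background except on the restimulated control array, where 1 was. This sum is almost all Il10, with log2 signals of 4.11, 2.40, 6.29 and 5.30 and differences of -1.71 and -0.98 with SH-2251. The other markers did not share this direction. Foxp3 differed by 0.095 at rest, within its technical SD of 0.347, and by at least 0.71 after restimulation, and Ikzf2 by 1.26 and at least 1.40. Neither was above background on the restimulated control array, so their values after restimulation are bounds. The part of these differences and of other cell types in the values below was not tested. As bulk RNA was measured, fewer cells that express a gene and less RNA of it per cell cannot be told apart.

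TGF-β is secreted in a latent form and, once released, binds the type II receptor, which then recruits and phosphorylates the type I receptor. The active type I receptor phosphorylates Smad2 and Smad3, which join Smad4, enter the nucleus and regulate target genes. Smad7 blocks the receptor, and the nuclear proteins Ski and SnoN (the product of Skil) repress Smad-dependent transcription. In CD4 T cells TGF-β restrains Th1 and Th2 differentiation, and it takes part in the differentiation of regulatory T cells, Th17 cells and, together with IL-4, Th9 cells.

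The promoters of 5 of the 10 genes (Tgfb1, Tgfbr1, Tgfbr2, Smad3 and Ski) are held in the RefSeq sequence table for GRCm38.p6. Sequences are shown for Tgfbr2 and Smad3, whose signals were lower with SH-2251, and for Tgfbr1, whose signal was higher. Each is the 250 bases before an annotated transcription start, 5′ to 3′ on the strand of the gene. Capitals mark GGGCGG (the GC box bound by Sp1), CAGAC (a Smad box) and AATC (the core of the sites bound by Gfi1, a repressor studied in these cells), each searched on both strands, and none of the matches shown overlap.
Tgfbr2, chr9:116175364-116175613, minus strand: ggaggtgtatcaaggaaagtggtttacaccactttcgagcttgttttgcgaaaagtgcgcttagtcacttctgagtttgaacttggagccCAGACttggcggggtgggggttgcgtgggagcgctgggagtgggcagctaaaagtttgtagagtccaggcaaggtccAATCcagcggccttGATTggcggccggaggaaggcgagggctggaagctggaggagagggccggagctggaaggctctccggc
Smad3, chr9:63757995-63758244, minus strand: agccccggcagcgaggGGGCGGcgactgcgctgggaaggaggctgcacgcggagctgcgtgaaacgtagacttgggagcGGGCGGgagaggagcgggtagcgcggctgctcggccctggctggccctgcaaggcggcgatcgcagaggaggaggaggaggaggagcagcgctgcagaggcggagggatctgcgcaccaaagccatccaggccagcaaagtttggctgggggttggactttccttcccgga
Tgfbr1, chr4:47352972-47353221, plus strand: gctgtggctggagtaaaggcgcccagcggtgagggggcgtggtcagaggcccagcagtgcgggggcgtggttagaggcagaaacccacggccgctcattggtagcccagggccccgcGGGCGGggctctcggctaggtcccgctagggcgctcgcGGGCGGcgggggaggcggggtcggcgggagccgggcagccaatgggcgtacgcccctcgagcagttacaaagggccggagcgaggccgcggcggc

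The Tgfbr2 window held 1 CAGAC, beginning 160 bases before the start, and 2 AATC cores at 83 and 69 bases, with no GC box. The Smad3 window held 2 GC boxes at 234 and 171 bases, and the Tgfbr1 window 2 GC boxes at 133 and 95 bases, and neither held CAGAC or AATC. A further annotated start of Tgfbr1 had 1 CAGAC and 4 AATC cores and no GC box. The windows of Tgfb1 and Ski, whose signals are described below, held 5 GC boxes each and neither of the other motifs. Among all 32851 promoter windows of this length, 32.7% held GGGCGG, 42.2% CAGAC and 69.0% AATC, so that each of these short motifs is common. Neither TATAAA (12.4% of windows) nor the palindromic Smad element GTCTAGAC (0.167%) occurred in the windows of these 5 genes. A match says that the letters are there and nothing about binding.

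Of the ligands, Tgfb3 was far lower in SH-2251-treated Th2 cells in either state, while Tgfb1 differed little between treatments and was higher after restimulation. Tgfb3, the ligand known as a product of developing Th17 cells, had processed intensities of 3370, 110, 804 and 91.8 units, which correspond to log2 signals of 2.59, -2.48, 0.69 and -2.67. The SH-2251 arrays were the lowest in both states, and the restimulated control lay between them and the resting control. The difference between SH-2251-treated and control cells was -5.07 (technical SD 0.218) at rest, which is 33.5-fold lower and left 2.98% of the control signal. It was -3.35 (technical SD 0.219), or 10.2-fold lower, after restimulation, and 9.78% of the control signal was left. By these values Tgfb3 ranked 2 among the 12683 genes compared at rest and 8 among the 12622 compared after restimulation, counted from the lowest difference. Restimulation went with a 3.73-fold lower signal in the control cells (difference -1.90), whereas the resting and restimulated SH-2251 arrays differed by -0.19 (technical SD 0.232).

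The Tgfb1 probe, for the ligand that is the main TGF-β of lymphocytes, was printed in 10 spots on each array, so that the error within an array could be seen directly. Its log2 signals were 3.56 ± 0.0303, 3.35 ± 0.0211, 4.40 ± 0.0207 and 4.42 ± 0.0241 (mean ± SD between 10 spots). The spots ranged from 3.52 to 3.60 on the resting control and from 3.31 to 3.37 on the resting SH-2251 array, so the spots of the resting arrays did not overlap. On the restimulated arrays they overlapped, at 4.37 to 4.44 and 4.38 to 4.47. SH-2251-treated cells differed from control cells by -0.21 at rest, about the size of the technical SD (0.204), and by 0.019 after restimulation. Restimulated cells had a higher Tgfb1 signal than resting cells, 1.79-fold in the control and 2.11-fold with SH-2251. The SD between spots does not include variation between cultures or labelling reactions.

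**Figure D1:**
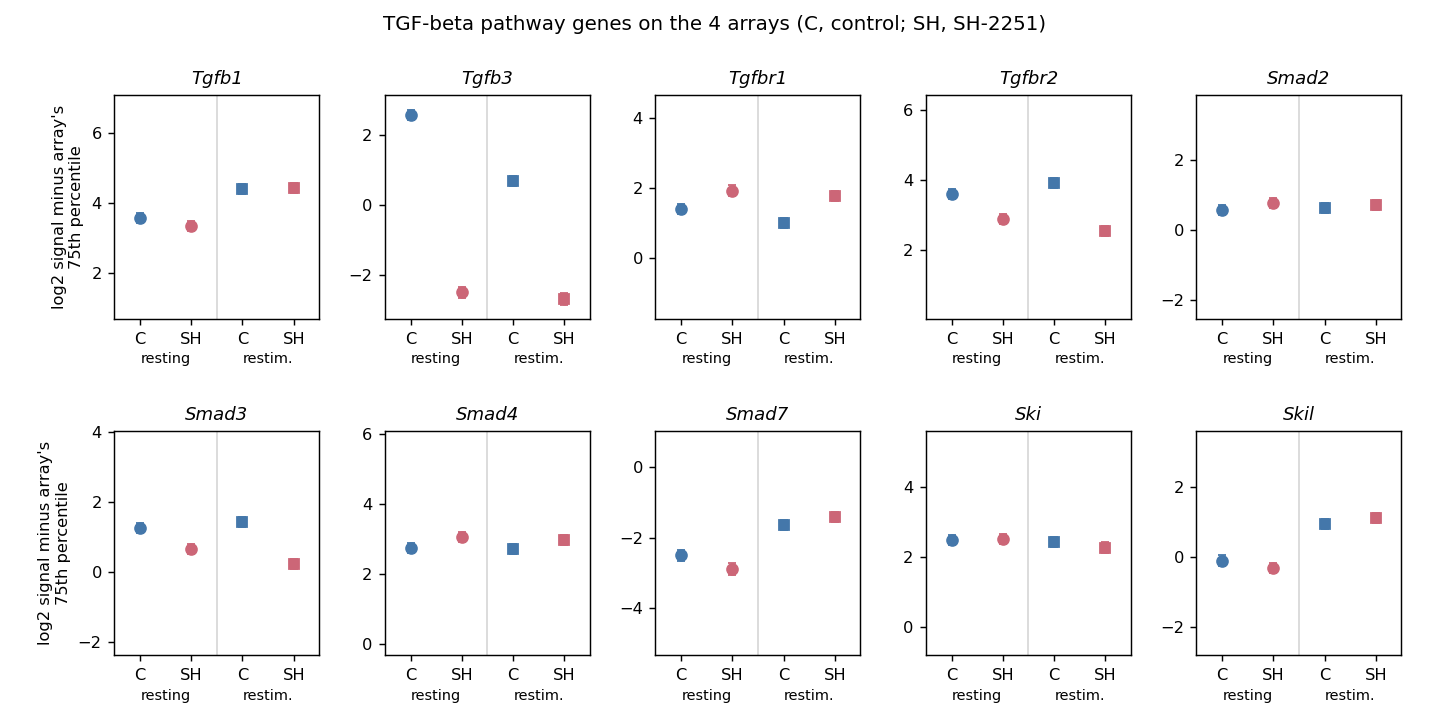
Log2 signal of the 10 genes on the 4 arrays, with each array's 75th percentile set to 0, with 1 panel per gene and the same axis length in every panel. Points are single arrays (circles, resting; squares, restimulated; blue, control; red, SH-2251), and bars, mostly hidden by the points, are the technical SD of the scanner software. Tgfb3 is at 2.59 and -2.48 on the resting arrays, and Tgfbr2 and Smad3 are lowest on the restimulated SH-2251 array, at 2.56 and 0.22.

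The pattern of Tgfb3 over the 4 arrays was set beside that of the other 11508 genes above background on all of them, by the Euclidean distance between the 4 log2 signals after subtraction of each gene's mean. The nearest were Itga4, an integrin chain used in T cell homing (distance 1.06), Plac8 (1.15), the transcriptional repressor Hic1 (1.25), the transglutaminase Tgm2 (1.37) and Ccdc33 (1.39). Log2 signals of Itga4 were -0.41, -4.11, -1.62 and -4.49. Those of Plac8 were 5.16, 0.96, 4.86 and 0.98, and those of Hic1 2.56, -2.32, 2.26 and -1.86. For Tgm2 they were 6.46, 1.75, 6.14 and 2.67, and for Ccdc33 -0.49, -3.72, -1.18 and -4.24. Each was lower on both SH-2251 arrays, by -3.23 to -4.88 at rest, which follows from their choice by likeness to Tgfb3. Itga4 came nearest to the lower signal of Tgfb3 in restimulated control cells, with a difference of -1.21. The 3 probes of Tgm2 differed by -4.71 to -4.33 at rest and by -3.61 to -3.39 after restimulation. Of the 3 probes of Itga4, only the brightest was above background on the restimulated SH-2251 array. The probes compared differed by -3.70 to 0 at rest and by -2.88 to -0.48 after restimulation, where a dim side makes a difference a bound. With SH-2251 the brightest probe, at -4.11 and -4.49, was not far above the dimmest signals called well above background there, -4.65 and -4.74.

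The receptor chains differed in opposite directions, with Tgfbr2 lower and Tgfbr1 higher in SH-2251-treated cells. Tgfbr2, the type II receptor that binds the ligand, had log2 signals of 3.62, 2.90, 3.93 and 2.56. It was 1.65-fold lower with SH-2251 at rest (difference -0.72, technical SD 0.204) and 2.59-fold lower after restimulation (difference -1.37, technical SD 0.204), when 38.6% of the control signal was left. The highest signal was that of the restimulated control and the lowest that of restimulated SH-2251-treated cells, and restimulation gave differences of 0.31 without and -0.34 with the compound. Tgfbr1, the type I receptor kinase, had log2 signals of 1.39, 1.93, 1.00 and 1.76 with its brighter probe. Both SH-2251 arrays were above both control arrays, 1.45-fold at rest (difference 0.54) and 1.69-fold after restimulation (difference 0.76). The dimmer probe had log2 signals of -3.92, -3.37, -4.01 and -3.35 and gave differences of 0.55 (technical SD 0.308) and 0.66 (technical SD 0.313).

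Among the receptor-activated Smads, Smad3 was lower with SH-2251 and Smad2 was close to the control. Smad3 had log2 signals of 1.25, 0.66, 1.42 and 0.22 with its brighter probe. The differences were -0.59 (technical SD 0.204) at rest and -1.21 (technical SD 0.204) after restimulation, the latter 2.31-fold lower with 43.3% of the control signal left. The dimmer Smad3 probe, at -3.14, -4.19, -2.93 and -4.39, showed the same order of arrays within each state and larger differences of -1.05 (technical SD 0.318) and -1.46 (technical SD 0.332). At rest the probes thus lay on either side of 2-fold. Smad2, the other substrate of the receptor, had log2 signals of 0.56, 0.76, 0.63 and 0.71, with differences of 0.21 and 0.084, and its highest and lowest arrays were both resting.

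Smad4, the partner shared by all receptor-activated Smads, was slightly higher on both SH-2251 arrays than on both control arrays. Its log2 signals were 2.75, 3.06, 2.71 and 2.97 with the brighter and 0.26, 0.72, 0.46 and 0.97 with the dimmer probe. The differences with SH-2251 were 0.31 at rest and 0.26 after restimulation with the former and 0.46 and 0.51 with the latter, each between 1 and 3 times the technical SD of 0.204. Differences of this size were frequent, as 14.3% of the genes compared at rest were at least as much higher as the brighter probe.

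Smad7, the inhibitory Smad that competes for the type I receptor and is itself a target of TGF-β, had log2 signals of -2.51, -2.90, -1.64 and -1.41. Both restimulated arrays were above both resting arrays. With SH-2251 the difference was -0.39 (technical SD 0.231) at rest and 0.23 (technical SD 0.210) after restimulation. Under a model-based background correction (normexp) the resting difference was 0.41 with all spots, for which the fitted background of the resting SH-2251 array was -151.7, and -0.28 without non-uniform spots.

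Ski and Skil encode related corepressors that bind Smad proteins in the nucleus, and they differed in their response to restimulation. The brightest of 3 Ski probes had log2 signals of 2.50, 2.53, 2.43 and 2.28, a nearly even level over the 4 arrays. The other Ski probes had 2.03, 2.06, 2.19 and 1.93, and -0.67, -1.01, -0.74 and -1.17. With SH-2251 the 3 probes gave differences of -0.33 to 0.032 at rest and -0.43 to -0.15 after restimulation. Skil had log2 signals of -0.090, -0.31, 0.95 and 1.12 with its brighter probe and -3.36, -3.66, -1.58 and -1.49 with its dimmer probe. Both probes separated restimulated from resting arrays, while the differences with SH-2251 were -0.21 and -0.30 at rest and 0.17 and 0.084 after restimulation.

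Counted over the 10 genes with the brightest probe of each, 1 gene (Tgfb3) was at least 2-fold lower with SH-2251 at rest, where 2.9% of all genes compared were, and none was at least 2-fold higher, against 2.22% of all genes. After restimulation 3 genes (Tgfb3, Tgfbr2 and Smad3) were at least 2-fold lower, against 2.78% of all genes, and none was at least 2-fold higher, against 2.65%. The choice of the genes used the lower Tgfb3 signal, so nothing is read from its part in these counts. The median difference of the 10 genes was -0.21 at rest and 0.052 after restimulation, beside -0.055 and -0.063 over all genes.

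**Figure D2:**
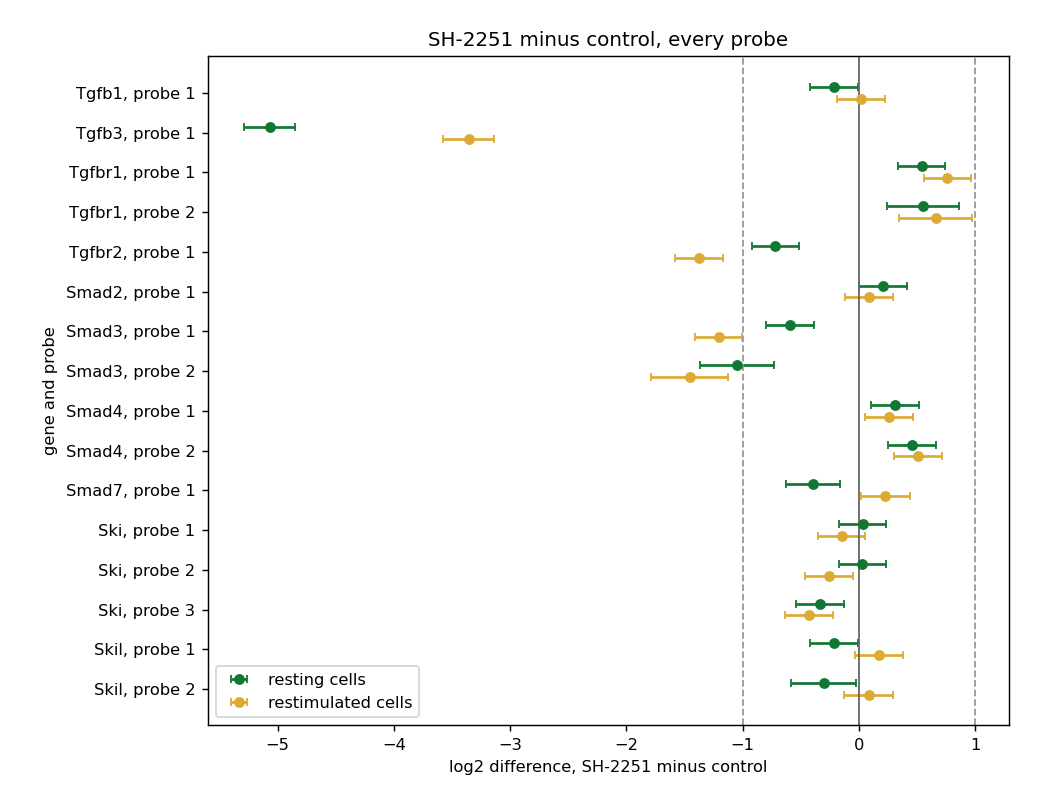
Difference in log2 signal between SH-2251-treated and control Th2 cells for each of the 16 probes of the 10 genes, at rest (green) and after restimulation (yellow), with bars for the technical SD. Dashed lines mark 2-fold. Tgfb3 lies at -5.07 and -3.35, Tgfbr2 and both Smad3 probes lie to the left of 0 in both states, and the probes of Tgfbr1 and Smad4 lie to the right.

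Restimulation through the T cell receptor was compared within each treatment, on the same 4 arrays, so these values are not independent of those above. In control cells 1 gene was at least 2-fold lower (Tgfb3, against 7.34% of all genes) and 1 at least 2-fold higher (Skil, 2.05-fold, against 7.2%). In SH-2251-treated cells none was at least 2-fold lower, against 6.98% of all genes, and 3 were at least 2-fold higher, against 7.09%: Tgfb1 (2.11-fold), Smad7 (2.81-fold) and Skil (2.69-fold). The count was 2 under quantile normalization, where Tgfb1 had a difference of 0.97, and under normexp, a model-based background correction, where that of Smad7 was 0.32 (0.99 without non-uniform spots). The same genes were 1.79-fold, 1.83-fold and 2.05-fold higher in control cells, so that for Tgfb1 and Smad7 the treatments lay on either side of 2-fold. The dimmer Skil probe gave larger differences, 1.79 without and 2.17 with SH-2251 on the log2 scale. Smad2, Smad4 and Ski had responses between -0.25 and 0.069 with their brightest probes.

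The response to restimulation with SH-2251 minus that without it was 1.71 (technical SD 0.309) for Tgfb3, which was already low at rest in SH-2251-treated cells. It was -0.65 (technical SD 0.289) for Tgfbr2, -0.62 (technical SD 0.289) for Smad3, 0.62 (technical SD 0.312) for Smad7 and 0.39 for Skil, and between -0.18 and 0.23 for the other genes. Tgfb3 was the only gene of the 10 with a difference of at least 1, against 1.22% of all genes measured on the 4 arrays. For Tgfbr2 and Smad3, 1 array, the restimulated SH-2251 array, carried the lowest signal and takes part in both the treatment and the restimulation difference.

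**Figure D3:**
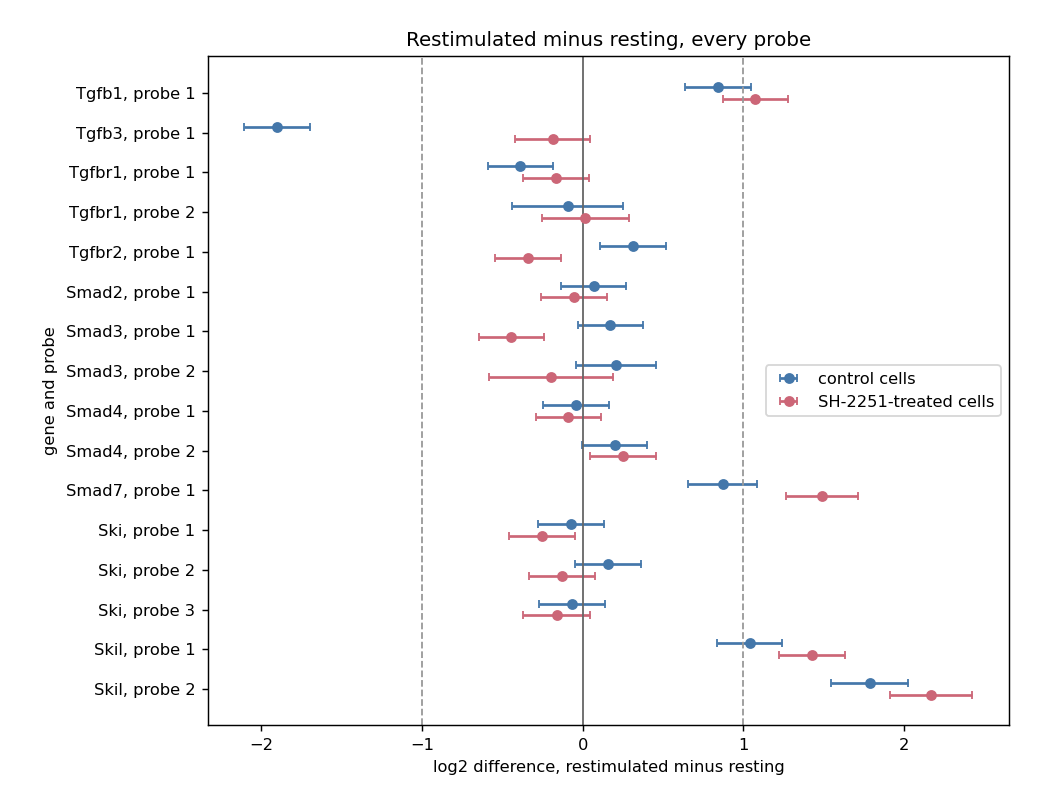
Difference in log2 signal between restimulated and resting Th2 cells for each of the 16 probes, in control cells (blue) and SH-2251-treated cells (red), with bars for the technical SD. Dashed lines mark 2-fold. Tgfb1, Smad7 and Skil lie to the right of 0 in both treatments, and Tgfb3 lies at -1.90 without and -0.19 with SH-2251.

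Other genes of the pathway were described from lists by role. Of 11 measured genes for other ligands and their activation, 1 was at least 2-fold lower with SH-2251 at rest, against 2.9% of all genes. None was at least 2-fold higher at rest, against 2.22%. After restimulation 1 of 12 was lower, against 2.78% of all genes, and 1 was higher, against 2.65%. The medians were -0.54 and -0.27, beside -0.055 and -0.063 over all genes. Inhba, which encodes the activin A subunit, had log2 signals of 0.57, -1.76, 7.04 and 6.41, so it was 5.02-fold lower with SH-2251 at rest and 1.54-fold lower after restimulation, and 88.4-fold higher with restimulation in control cells. Ltbp3, a protein that holds TGF-β in its latent complex, had 1.04, 0.071, -0.11 and -1.21, with differences of -0.97 at rest and -1.11 after restimulation and smaller ones (-0.43 and -0.68) with its other probe. Bmp7, a bone morphogenetic protein, went the other way with 3.06, 4.02, 2.51 and 3.58 and differences of 0.96 and 1.07. Furin, the protease that cleaves the TGF-β precursor, had 1.72, 1.53, 5.82 and 6.10, 17.1-fold higher with restimulation without SH-2251 and 23.8-fold higher with it.

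Of the other receptors of the family, 8 of 9 had a difference above 0 with SH-2251 in each state, as had 42.5% of all genes at rest and 42.1% after restimulation, and the medians were 0.37 and 0.32. Tgfbr3 and Acvr2a were above background only on the SH-2251 arrays, so their differences are bounds that could not fall below 0. Nothing is read from their part in these counts. Of these receptors 2, Acvr1 and Acvr2a, were at least 2-fold higher at rest, against 2.22% of all genes, and none after restimulation, against 2.65%. Acvr1, a type I receptor for bone morphogenetic proteins and activins, had log2 signals of -3.17, -2.13, -1.57 and -1.01, and was 2.06-fold higher at rest and 1.48-fold higher after restimulation. Acvr2a, an activin type II receptor, was not well above background in control cells and was at least 2.22-fold higher at rest and at least 1.71-fold higher after restimulation. Acvrl1, whose probe had the highest mean signal on this list, was at -0.21, 0.059, -1.28 and -0.48, with differences of 0.27 and 0.80. Bambi, a pseudoreceptor, was the exception with differences of -0.073 and -0.21. Among the Smads of the bone morphogenetic protein branch, Smad1 had differences of 0.55 and 0.63 and Smad5 of 0.31 and 0.46, whereas Smad9 was above background only in restimulated control cells and was at least 2.21-fold lower there with SH-2251.

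None of the 15 measured regulators of receptors and Smads and none of the 4 genes of the non-Smad branch differed by 2-fold with SH-2251 in either state. Medians were 0.074 and 0.064 for the former and 0.21 and 0.20 for the latter. Only 2.22% to 2.9% of all genes passed 2-fold in a given direction and state, so nothing is read from the absence in lists this short. Strap, which binds the receptors with Smad7, differed by -0.026 and -0.19, and the ubiquitin ligase gene Stub1 by -0.13 and -0.14. Of 11 Smad partners and corepressors 1 was at least 2-fold lower at rest, against 2.9% of all genes, and none after restimulation, against 2.78%. None was at least 2-fold higher, against 2.22% and 2.65%. The lower gene was Runx2, a Runt family transcription factor, with log2 signals of -1.48, -3.63, 0.027 and -0.56, 4.44-fold lower at rest and 1.51-fold lower after restimulation. The corepressor Ncor1 differed by 0.22 and 0.18 and the transcription factor Sp1, which binds the GC box, by 0.16 and 0.28.

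Genes known to be raised by TGF-β did not differ in a common direction. At rest 4 of 13 were at least 2-fold higher and 1 was at least 2-fold lower with SH-2251, and after restimulation 4 of 15 were higher and 2 lower, with medians of 0.095 and 0.37. Of all genes compared, 2.22% were higher and 2.9% lower at rest, and 2.65% and 2.78% after restimulation. Itgae, which encodes the CD103 integrin chain, had log2 signals of -1.21, 3.33, -1.20 and 3.69, 23.3-fold higher at rest and 29.6-fold higher after restimulation. The cell cycle inhibitor Cdkn2b, at -1.39, 0.91, 0.11 and 2.38, was 4.94-fold and 4.84-fold higher, and Id3, an inhibitor of E proteins, at 0.50, 2.39, -0.028 and 1.20, was 3.71-fold and 2.35-fold higher. Tgif1 was 2.01-fold higher at rest and 1.29-fold higher after restimulation. Il9 was above background only in restimulated SH-2251-treated cells, at least 3.96-fold higher than in restimulated control cells. Junb, the listed gene with the highest mean probe signal, differed by -0.55 and -0.093.

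Of the genes known to be lowered by TGF-β, 6 of 7 had a difference below 0 with SH-2251 at rest and 7 of 8 after restimulation, beside 57.5% and 57.9% of all genes, and the medians were -0.46 and -0.40. At least 2-fold lower were 1 gene at rest, against 2.9% of all genes, and 2 after restimulation, against 2.78%. None was at least 2-fold higher, against 2.22% and 2.65%. Gzmb, the granzyme B gene, had log2 signals of 7.31, 5.12, 8.49 and 7.55, 4.59-fold lower at rest and 1.92-fold lower after restimulation. Ifng, at -0.58, -1.04, 5.34 and 3.70, was 1.38-fold lower at rest and 3.12-fold lower after restimulation. Il2 was above background only after restimulation, at -1.44 without and -2.97 with SH-2251, 2.89-fold lower, and its other probe differed by -1.01. Gata3, the Th2 lineage factor, is on this list too, with the values given above. These lists were written with earlier results of the same arrays known, so their counts are not independent evidence of a direction.

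**Figure D4:**
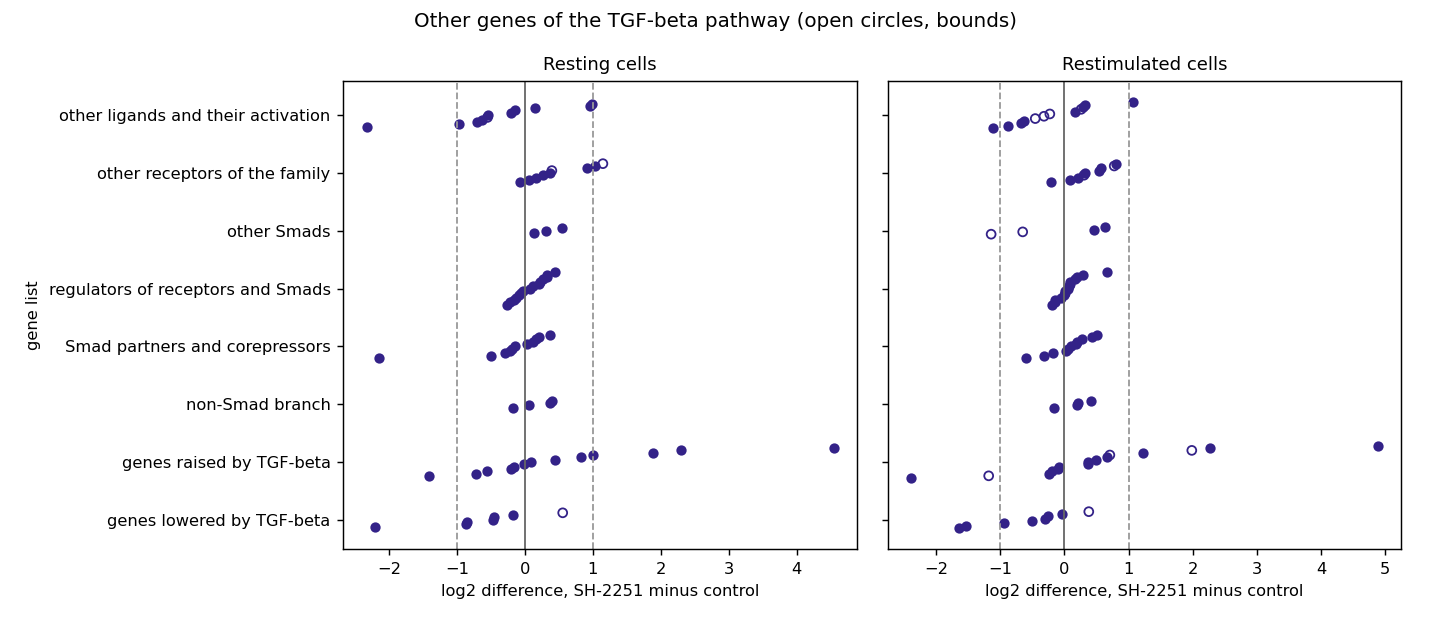
Difference in log2 signal between SH-2251-treated and control Th2 cells for other genes of the TGF-β pathway, by list, at rest (left) and after restimulation (right). Each point is 1 gene, drawn with a small vertical offset, open circles are bounds for genes above background on 1 array of the pair, and dashed lines mark 2-fold. Itgae lies farthest to the right, at 4.54 and 4.89, and the regulators of receptors and Smads lie between the dashed lines.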

How the data were processed

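Sample labels gave the condition of each of the 4 arrays. The 10 genes and all gene lists were chosen with earlier results of these data known. The authors deposited 1 scanner file per array, whose intensity values had been corrected for background by Agilent Feature Extraction 10.7.3.1, and a table of log2 values that the methods state were normalized with the Subio Platform. On each array, over 99.6% of these deposited log2 values lay within 0.01 of the log2 intensities minus the 75th percentile, after removal of the array's median offset. Their own 75th percentiles were -0.00056 to -3.6e-05, so their scale and centring are known, and they served as an alternative. Column medians of that table were -3.72, -3.78, -3.70 and -3.74 in the order of conditions used above. The 75th percentile was 561, 614, 499 and 583 intensity units on the arrays, 56.0% to 56.7% of probes were well above background, and no spot was saturated.

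Control spots and outlier spots (77 to 106 per array) were left out, log2 values were taken, spots of a probe were averaged and the 75th percentile was subtracted. Probes were named by RefSeq accession through a table for GRCm38.p6 (27198 of 41174 probes, 66.1%). The probe with the highest mean signal represented a gene, and all probes of the 10 genes are given. A gene was compared if 1 or both arrays of a pair had its probe well above background. If 1 array was dim, its side was raised to the dimmest signal still called well above background there (unless the probe's own was higher), and the fold is then a lower bound. Genes at least 2-fold apart were counted. Outside the 10 genes, those named are the list genes that differed 2-fold with SH-2251, up to 3 others per list with the highest mean signal, and the 5 most like Tgfb3. Some genes that meet this rule are counted with their list but not reported here by name. All arrays were on 1 slide and read in 1 scan, so no batch could be separated, and precision is limited by the number of arrays.

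Alternatives of scaling, background correction (normexp in limma 3.58.1 with R 4.3.3, offset 50, on median spot signals since the files used hold no mean signals), filter, probe rule, outlier spots and fold threshold were computed. The procedure was tested on simulated data. Python 3.11.15 with numpy 2.4.6, pandas 2.3.3 and matplotlib 3.10.9 was used.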

Additional observations from a re-analysis of the deposited data

Results flagged for a closer look

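Smad7 stood out because its difference with SH-2251 had opposite signs in the 2 states, -0.39 at rest and 0.23 after restimulation, a change of 0.62, with each value larger than its technical SD. Tgfbr2 stood out in the same way for restimulation, with a difference of 0.31 without and -0.34 with SH-2251, a change of -0.65. With 1 array per condition neither difference was tested.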

How the results depend on the processing

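Over the 10 alternatives other than the fold threshold, 459 of 480 values of single genes moved by less than the technical SD, 21 moved by more, and no called value changed sign. Some alternatives could hardly move a value. All probes of these genes were well above background on every array, so a change of filter left them as they were. The deposited log2 values differed by at most 0.0035 for these probes. The count of 459 is therefore no measure of robustness. The 480 values leave out the differences of Tgfb3 with SH-2251. With normexp these were -3.65 at rest and -2.51 after restimulation, and without non-uniform spots as well -4.32 and -2.52. In control cells no gene (0) was at least 2-fold higher with restimulation under either normexp setting, against 4.93% of all genes with all spots and 4.77% without non-uniform spots. With all spots, normexp put 1.28% of all genes at rest 2-fold lower and 5.47% 2-fold higher with SH-2251. The fitted background was -151.7 on the resting SH-2251 array and 7.97 without non-uniform spots. With normexp Smad7 had differences of 0.41 at rest and 0.32 with restimulation in SH-2251-treated cells, and a changed response of -0.24, and without non-uniform spots -0.28, 0.99 and 0.43. The difference of Tgfbr2 with restimulation in SH-2251-treated cells was -0.055 with normexp and -0.31 without non-uniform spots. For Smad7 and the control cells the cause was not tested. At 1.5-fold, 3 genes were lower with SH-2251 at rest (Tgfb3, Tgfbr2 and Smad3, against 7.45% of all genes), 1 was higher after restimulation (Tgfbr1, against 6.9%) and 3 were higher with restimulation in control cells (against 15%). At 3-fold, 1 gene was lower with SH-2251 after restimulation (against 1.14%), and none (0) was higher with restimulation in control (against 2.97%) or SH-2251-treated cells (0, against 3.14%). No paired analysis was possible because the labels give no replicate numbers, and an additive fit over both states, which would leave 1 residual degree of freedom, was not run. With 1 array per condition no array could be left out. The dimmer probes of Tgfbr1 and Smad3 had a technical SD of 0.308 to 0.332 in the SH-2251 comparisons.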
